A study of Homo sapiens with 6 samples.

Results

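Immunoglobulin heavy and light chain transcripts were covered by 107 of the 54613 probe sets on an Affymetrix array, in KARPAS-422 and Pfeiffer, 2 human lines derived from diffuse large B-cell lymphoma, a mature B cell tumour. A probe set is a group of short oligonucleotides whose signals are combined into 1 value. A probe set was a member where its annotation named a heavy chain constant gene (IGHM, IGHD, IGHE, IGHG1 to IGHG4, IGHA1 or IGHA2), the kappa constant gene IGKC, a lambda constant or joining segment (IGLC or IGLJ with a number), or a variable segment (IGHV, IGKV or IGLV), alone or among other symbols. Of the 107 members, 55 belonged to the heavy chain locus on chromosome 14, 20 to the kappa group on chromosome 2, among them 1 orphan variable pseudogene outside the locus, and 32 to the lambda locus on chromosome 22. The rule reads the annotation alone. Probe sets, not genes, were the units, since 56 of the 107 carried several symbols.

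The groups were KARPAS-422 cells with a short hairpin RNA against EZH2 (shEZH2, 2 arrays), KARPAS-422 cells with a non-targeting hairpin (shNTC, 2 arrays), Pfeiffer cells with shEZH2 (1 array) and Pfeiffer cells with shNTC (1 array), all at 10 days. EZH2 is the methyltransferase of the Polycomb repressive complex PRC2, which places a repressive methyl mark on histones, and both lines are known to carry an activating EZH2 mutation. Cells of all groups received lentivirus with polybrene at 8 µg/ml in medium with 10% serum, and from 2 days later puromycin at 1 µg/ml, which kills uninfected cells. The KARPAS-422 arrays are labelled biological replicates, but the labels do not say whether they came from separate infections, so their p-values measure the spread between these arrays, which may be technical. Each arm rests on 1 hairpin, so loss of EZH2 cannot be told apart from other effects of that hairpin. The hairpin inserts that define the arms are printed with the 21 bases of the first stem in capitals, 5′ to 3′.
shEZH2: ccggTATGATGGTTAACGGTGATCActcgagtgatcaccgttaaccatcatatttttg
shControl (the shNTC arms): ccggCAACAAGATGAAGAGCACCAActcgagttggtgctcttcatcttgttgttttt

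An immunoglobulin is built of paired heavy and light chains. Each chain gene is assembled in the B cell from a variable and a joining segment, with a diversity segment in the heavy chain, and is spliced to a constant region. The heavy chain constant gene sets the isotype, so IGHM encodes IgM, IGHD IgD, the IGHG genes IgG and the IGHA genes IgA, and class switching replaces one by another. A mature B cell usually makes either a kappa or a lambda light chain, and a lymphoma line, being a clone, usually keeps that choice. When B cells become antibody-secreting plasma cells, immunoglobulin transcripts increase strongly under factors such as PRDM1 and XBP1.

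Values are log2 signals, on which 1 unit is a doubling. EZH2 (probe set 203358_s_at) was at 10.52 and 10.55 in KARPAS-422 shEZH2 cells, against 11.71 and 11.57 in shNTC cells. In Pfeiffer it was at 10.24 with shEZH2, against 11.65 with shNTC. The hairpin groups did not overlap in KARPAS-422, where EZH2 fell by 1.11 (SE 0.10, limma adjusted p = 0.00125), and the Pfeiffer difference was −1.41. Over the 31102 probe sets tested, arrays correlated at 0.979 between KARPAS-422 shEZH2 replicates, 0.973 between shNTC replicates and 0.702 to 0.735 between the lines. The small number of arrays limits the precision. In KARPAS-422 the 3′ minus 5′ difference of the ACTB probe sets, a sign of RNA quality, was 0.138 and 0.175 with shEZH2, against 0.0593 and 0.0830 with shNTC. Its part in the results was not tested. B cell markers were present in both lines. Summed B cell marker signal was 16.26 to 16.27 (log2) in KARPAS-422 shEZH2 cells and 15.92 to 16.22 in shNTC cells. It was 16.27 and 16.11 in Pfeiffer shEZH2 and shNTC cells. Summed plasma cell marker signal differed between the lines. It was 12.25 to 12.33 in KARPAS-422 shEZH2 cells, 12.42 to 12.80 in shNTC cells, and 15.72 and 15.68 in Pfeiffer shEZH2 and shNTC cells. Its part in the line differences was not tested. Markers of other lineages were also present: EPCAM (201839_s_at, an epithelial adhesion molecule) was at 12.98 and 13.33 and CD8A (205758_at, a T cell co-receptor) at 13.60 and 13.49 in Pfeiffer shEZH2 and shNTC cells. CD3G (206804_at, a T cell receptor subunit) was at 11.13 to 12.08 in KARPAS-422.

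Of the 107 members, 46 were tested, namely those above the median of all values (6.20) on at least 2 of the 6 arrays. They comprised 22 heavy chain, 15 kappa and 9 lambda probe sets. The 61 others lay between 0.0098 and 7.27, and 10 of them had 1 array above that median. Among the 46, 10 passed through the Pfeiffer arrays alone (9 heavy chain, 1 lambda) and 1 through the KARPAS-422 arrays alone, so a difference between the lines was built into these. Their line differences are given as descriptions, without a test, and their sizes are uncertain because the lower side is dim. Of the 46, 27 carried several symbols and 35 had names ending in _x_at, the suffix for probes that may also bind transcripts of other genes. Such probe sets are therefore named by ID with their annotation, and levels are compared within a probe set only.

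**Figure D1:**
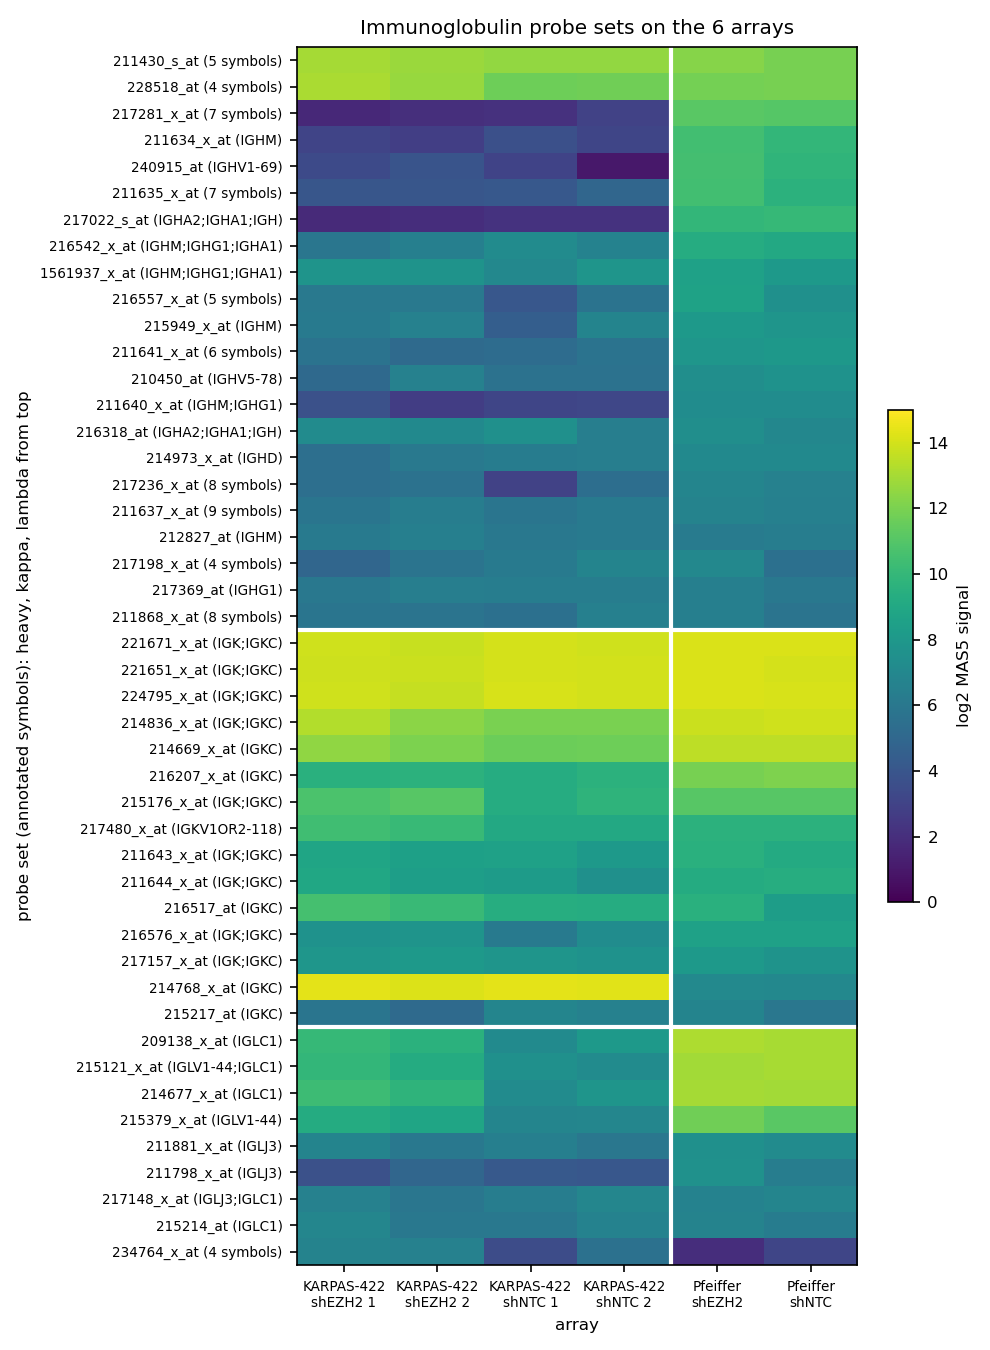
Log2 signal (colour) of the 46 tested immunoglobulin probe sets (rows) on each of the 6 arrays (columns), with white lines between the heavy chain, kappa and lambda loci and between the cell lines. A group of heavy chain rows is dark in KARPAS-422 and bright in Pfeiffer, 214768_x_at (IGKC) shows the opposite, and the 4 bright lambda rows are lighter in KARPAS-422 with shEZH2 than with shNTC.

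The lines differed in their immunoglobulin transcripts in all 3 loci. KARPAS-422 minus Pfeiffer, taken over both hairpins, was lower for 28 of the 46 members (60.9%) and higher for 5 (10.9%), against 26.9% lower and 26.0% higher among all 31102 probe sets (limma, Benjamini-Hochberg, 0.05). Pfeiffer had 1 array per hairpin, so the spread in this test came from the KARPAS-422 arrays alone. The p-values for line differences, here and below, do not measure a spread between Pfeiffer cultures. With arrays centred on their medians, the overall split moved to 11305 higher and 6139 lower, against 8086 and 8368 here, and 24 members were lower and 5 higher. The median member difference was −1.06, against −0.03 for all probe sets. These shares describe the members and support nothing further, since 11 of the 46 were tested only because 1 line was above the median. By locus the lower calls were 13 of 22 heavy chain, 9 of 15 kappa and 6 of 9 lambda probe sets. The heavy chain and lambda counts include probe sets tested through the Pfeiffer arrays alone. For those a lower value in KARPAS-422 was built in, so their calls are no evidence of a line difference. In 10 members, 6 heavy chain and 4 lambda, KARPAS-422 was lower by more than 3 log2 units, and in 2 it was higher by more than 3. All 6 heavy chain ones were tested through the Pfeiffer arrays alone, and 1 of the 2 higher ones through the KARPAS-422 arrays alone.

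Among heavy chain probe sets for IgM alone, 211634_x_at (IGHM) was at 3.06 and 2.76 in KARPAS-422 shEZH2 cells, 3.65 and 3.15 in KARPAS-422 shNTC cells, 10.44 in Pfeiffer shEZH2 cells and 9.96 in Pfeiffer shNTC cells. All KARPAS-422 arrays lay far below both Pfeiffer arrays, and this probe set was tested through the Pfeiffer arrays alone. The other IGHM probe sets did not repeat this size. 215949_x_at (IGHM) was at 6.11 and 6.59 in KARPAS-422 shEZH2 cells, 4.47 and 6.78 in shNTC cells, and 8.13 and 7.84 in Pfeiffer shEZH2 and shNTC cells, a difference of −1.996 (adjusted p = 0.0255). 212827_at (IGHM) stayed between 6.002 and 6.45 on all 6 arrays, with a line difference of −0.10 (adjusted p = 0.790). The call of 215949_x_at was lost without KARPAS-422 shEZH2 replicate 1, with differences of −2.57 to −1.42 over the arrays left out, and within either hairpin arm alone (−1.78 with shEZH2, −2.22 with shNTC). Probe sets that name IGHM alone thus disagreed, and both that were higher in Pfeiffer carry the _x_at suffix.

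For IgD, 214973_x_at (IGHD) was at 5.48 and 6.07 in KARPAS-422 shEZH2 cells, 6.28 and 6.41 in shNTC cells, and 7.14 and 7.13 in Pfeiffer shEZH2 and shNTC cells. It was lower in KARPAS-422 by 1.08 (SE 0.29, adjusted p = 0.0170), at −1.36 within the shEZH2 arm and −0.79 within the shNTC arm, where the call was lost. For IgG, the 1 tested probe set naming IGHG1 alone, 217369_at, lay between 5.98 and 6.47 on all arrays with a line difference of 0.04 (adjusted p = 0.914). For IgA, 217022_s_at (IGHA2;IGHA1;IGH) was at 1.76 and 1.94 in KARPAS-422 shEZH2 cells, 2.19 and 2.17 in shNTC cells, and 9.96 and 10.05 in Pfeiffer shEZH2 and shNTC cells. The lines did not overlap, and it too was tested through the Pfeiffer arrays alone. The second probe set with the same annotation, 216318_at, lay between 6.39 and 7.53 in KARPAS-422 and at 7.38 and 6.92 in Pfeiffer shEZH2 and shNTC cells, and its difference of −0.08 was not called (adjusted p = 0.857). On the KARPAS-422 arrays, the tested probe sets naming 1 heavy chain class all lay at 7.53 or below.

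2 heavy chain probe sets were bright in both lines, and both name IGHM together with IGHG genes and a pair of microRNA genes. 211430_s_at (MIR8071-2;MIR8071-1;IGHM;IGHG2;IGHG1) was at 12.96 and 12.75 in KARPAS-422 shEZH2 cells, 12.54 and 12.57 in shNTC cells, and 12.28 and 11.90 in Pfeiffer shEZH2 and shNTC cells. It was higher in KARPAS-422 by 0.61 (SE 0.08, adjusted p = 7.20e-04). 228518_at (MIR8071-2;MIR8071-1;IGHM;IGHG1) was at 13.08 and 12.68 in KARPAS-422 shEZH2 cells, 11.69 and 11.73 in shNTC cells, and 11.84 and 11.93 in Pfeiffer shEZH2 and shNTC cells. Only its KARPAS-422 shEZH2 arrays stood above the Pfeiffer ones: the line difference was 0.41 (SE 0.12, adjusted p = 0.0215) over both hairpins and −0.22 between the shNTC arrays. These annotations cannot tell μ from γ transcripts.

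Wide gaps between the lines were also seen at heavy chain probe sets with variable or several constant symbols, which were tested through the Pfeiffer arrays alone. 217281_x_at (IGHM;IGHG3;IGHG2;IGHG1;IGHA2;IGHA1;IGH) was at 1.71 and 2.01 in KARPAS-422 shEZH2 cells, 2.11 and 2.94 in shNTC cells, and 11.17 and 11.04 in Pfeiffer shEZH2 and shNTC cells. All KARPAS-422 arrays were dim and both Pfeiffer arrays high. 240915_at, the probe set of the variable segment IGHV1-69, was at 3.36 and 3.89 in KARPAS-422 shEZH2 cells, 3.03 and 0.95 in shNTC cells, and 10.54 and 9.79 in Pfeiffer shEZH2 and shNTC cells. The lines again did not overlap, and it is not an _x_at probe set. 211635_x_at, annotated to 7 constant genes of all 4 isotype classes above, was at 4.02 to 4.95 on the KARPAS-422 arrays and 10.46 and 9.65 in Pfeiffer shEZH2 and shNTC cells. 211640_x_at (IGHM;IGHG1) was at 2.70 to 3.75 on the KARPAS-422 arrays and 7.31 and 7.27 in Pfeiffer shEZH2 and shNTC cells. 216557_x_at and 211641_x_at, also above the median in Pfeiffer alone, differed by −2.62 and −2.475. Of the heavy chain probe sets above it on an array of both lines, 216542_x_at was lower by 2.59 (adjusted p = 1.76e-04). The IGHV5-78 pseudogene probe set 210450_at was lower by 1.76 (adjusted p = 0.0110), a call lost within the shEZH2 arm (−1.53). 1561937_x_at was lower by 0.80 (adjusted p = 0.0311), a call lost within either arm and without either KARPAS-422 shEZH2 replicate (−1.02 to −0.59). The tested heavy chain probe sets 211637_x_at, 211868_x_at, 217198_x_at and 217236_x_at, each with several symbols, were not called, with differences between −1.81 and −0.21. Of the probe sets annotated IGH alone, which the rule leaves out, 217469_at was at 3.32 and 2.88 in KARPAS-422 shEZH2 cells, 3.40 and 3.15 in shNTC cells, and 13.34 and 13.08 in Pfeiffer shEZH2 and shNTC cells. It showed the same order of the lines as the IGHV1-69 probe set and the IGHA probe set tested through the Pfeiffer arrays alone. Its KARPAS-422 arrays were likewise under the median of all values. The other tested IGHA probe set did not show this order, since its lines overlapped. Values of the other probe sets annotated IGH alone are not given, so this probe set is a description only.

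Kappa signal was present in both lines, and the probe sets split by line. 214768_x_at (IGKC) was at 14.38 and 14.19 in KARPAS-422 shEZH2 cells, 14.41 and 14.31 in shNTC cells, and 7.06 and 6.99 in Pfeiffer shEZH2 and shNTC cells. This difference of 7.29 (SE 0.09, adjusted p = 2.68e-08) went against most of the locus. 221651_x_at, 221671_x_at and 224795_x_at, all annotated IGK;IGKC, were between 13.71 and 14.17 on all 6 arrays, with line differences of −0.19, −0.26 and −0.19. The first and second were called, each a call lost without 1 or more KARPAS-422 arrays (without shEZH2 replicate 2 or either shNTC replicate, and without shNTC replicate 2), at differences of −0.21 to −0.16 and −0.30 to −0.22. Both were also lost within the shNTC arm, at −0.035 and −0.17. Quantile normalization, no filter and no intensity trend each lost both calls too. That of 221671_x_at was also lost under median centring, and its difference shrank to −0.036 over the alternatives. 216207_x_at (IGKC) was lower in KARPAS-422, at 9.50 and 9.63 in shEZH2 cells and 9.26 and 9.66 in shNTC cells, against 11.93 and 12.07 in Pfeiffer shEZH2 and shNTC cells. Its difference was −2.49 (SE 0.13, adjusted p = 8.00e-06). 214669_x_at (IGKC) and 214836_x_at (IGK;IGKC) were lower by 1.53 and 1.44, 216576_x_at by 1.39, 211644_x_at by 1.03, 215176_x_at by 0.88 and 211643_x_at by 0.83. Within the shEZH2 arm the calls of 216576_x_at (−0.87), 211644_x_at (−0.59) and 215176_x_at (−0.17) were lost, while within the shNTC arm their differences were −1.90, −1.47 and −1.59. 216517_at (IGKC) was higher by 0.91. 224795_x_at, 215217_at (IGKC), 217157_x_at (IGK;IGKC) and 217480_x_at (IGKV1OR2-118, the orphan pseudogene) were not called between lines. The kappa probe sets thus did not rank the lines 1 way, and kappa transcript was bright in both.

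Lambda signal was high in Pfeiffer. 214677_x_at (IGLC1), 209138_x_at (IGLC1), 215121_x_at (IGLV1-44;IGLC1) and 215379_x_at (IGLV1-44) lay between 11.16 and 13.16 on the Pfeiffer arrays, against 6.82 to 10.26 on the KARPAS-422 arrays. Their line differences ran from −4.51 to −3.52 over both hairpins, from −3.37 to −2.72 within the shEZH2 arm and from −5.67 to −4.32 within the shNTC arm. Of the joining segment probe sets, 211798_x_at (IGLJ3), tested through Pfeiffer alone, differed by −2.71. 211881_x_at (IGLJ3) was lower in KARPAS-422 by 1.09 (adjusted p = 0.0219), a call lost within either arm and without KARPAS-422 shEZH2 replicate 2 (−1.28 to −0.90). 215214_at (IGLC1) and 217148_x_at (IGLJ3;IGLC1) lay between 5.88 and 6.90 in both lines and were not called. 234764_x_at (IGLJ3;IGLV1-44;CKAP2;IGLC1) went the other way, with 6.71 and 6.59 in KARPAS-422 shEZH2 cells, 3.51 and 5.61 in shNTC cells, and 1.99 and 3.14 in Pfeiffer shEZH2 and shNTC cells. It was tested through the KARPAS-422 arrays alone, and its difference of 3.04 over both hairpins was 4.66 within the shEZH2 arm and 1.42 within the shNTC arm. Pfeiffer thus had signals above 11 at probe sets of both light chain loci.

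**Figure D2:**
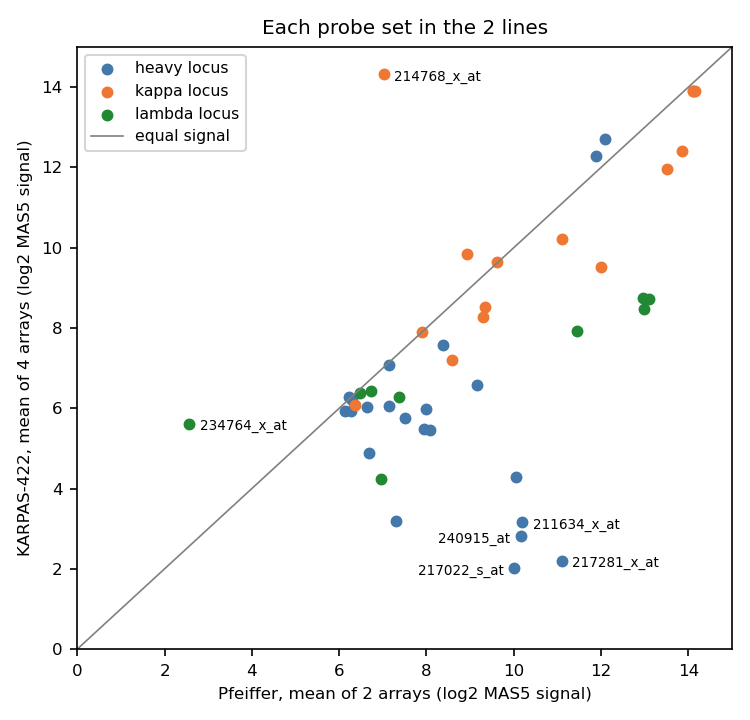
Mean log2 signal of each tested immunoglobulin probe set over the 4 KARPAS-422 arrays (vertical axis) against the 2 Pfeiffer arrays (horizontal axis), coloured by locus, with the line of equal signal. Heavy chain probe sets such as 217281_x_at and 217022_s_at and 4 lambda probe sets lie far below the line, and 214768_x_at lies far above it.

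With shEZH2, a number of light chain probe sets rose in KARPAS-422, those of the lambda locus by the most. Of the 46 tested members 10 were higher (21.7%) and 0 lower with shEZH2, against 12.0% higher and 8.06% lower among all probe sets (limma, Benjamini-Hochberg, 0.05). The 10 comprised 4 of 9 lambda, 5 of 15 kappa and 1 of 22 heavy chain probe sets. The median difference of the lambda members was 2.09, of the kappa members 0.35 and of the heavy chain members 0.10, against 0.04 for all probe sets. The lambda median is the value of the uncalled 234764_x_at, for which the filter built in a rise, so this median describes no typical lambda member. Called lambda members differed by 2.16 to 2.49, and the remaining ones by −0.38 to 0.18. At an unadjusted p under 0.05 there were 13 members higher and 5 lower of 46, against 6473 higher and 4765 lower of all 31102 probe sets. Since probe sets of a locus share transcripts, these counts are not counts of independent genes, and in cultured cells more expressing cells and more RNA per cell cannot be told apart.

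The largest of these differences belonged to the lambda locus. 214677_x_at (IGLC1, the lambda constant region) was at 10.26 and 9.75 in KARPAS-422 shEZH2 cells, against 7.23 and 7.80 in shNTC cells. Both shEZH2 arrays stood above both shNTC arrays, a rise of 2.49 (SE 0.23, adjusted p = 0.00135), or 5.62-fold. 209138_x_at (IGLC1) was at 10.02 and 9.56 with shEZH2, against 7.18 and 8.08 with shNTC, a rise of 2.16 (SE 0.29, adjusted p = 0.00472). 215121_x_at (IGLV1-44;IGLC1) was at 9.94 and 9.20 with shEZH2, against 7.52 and 7.26 with shNTC, a rise of 2.18 (SE 0.24, adjusted p = 0.00241). 215379_x_at (IGLV1-44, a lambda variable segment) was at 9.22 and 8.80 with shEZH2, against 6.82 and 6.87 with shNTC, a rise of 2.16 (SE 0.17, adjusted p = 7.92e-04). In all 4 the hairpin groups did not overlap, and the shEZH2 arrays of KARPAS-422 still lay below both Pfeiffer arrays. Uncalled members such as 211644_x_at and 216576_x_at did not overlap between hairpins in KARPAS-422 either. With 2 arrays per arm, a lack of overlap, here and elsewhere, therefore describes the arrays and adds no support to a call. Its share among all probe sets is not given. All 4 are _x_at probe sets. The dim 234764_x_at differed by 2.09 without passing the test (SE 0.90, adjusted p = 0.144). It was above the median of all values on the KARPAS-422 shEZH2 arrays alone, so a rise was built in. The 4 other lambda members differed by −0.38 to 0.18.

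Within the kappa locus, the called rises were smaller. 215176_x_at (IGK;IGKC) was at 10.77 and 11.09 in KARPAS-422 shEZH2 cells, against 9.29 and 9.74 in shNTC cells. It rose by 1.42 (SE 0.18, adjusted p = 0.00389). 217480_x_at (IGKV1OR2-118) was at 10.42 and 10.11 with shEZH2, against 9.03 and 9.04 with shNTC, and rose by 1.23 (SE 0.14, adjusted p = 0.00311). 216517_at (IGKC) was at 10.58 and 10.17 with shEZH2, against 9.34 and 9.29 with shNTC, and rose by 1.05 (SE 0.16, adjusted p = 0.00743). None of these 3 overlapped between hairpins, and 216517_at is the 1 of the called kappa probe sets without the _x_at suffix.

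For 2 further kappa probe sets the call was marginal. 214836_x_at (IGK;IGKC) was at 13.26 and 12.40 with shEZH2, against 11.96 and 12.01 with shNTC, a rise of 0.85 (SE 0.24, adjusted p = 0.0497). 214669_x_at (IGKC) was at 12.52 and 12.04 with shEZH2, against 11.61 and 11.70 with shNTC, a rise of 0.63 (SE 0.15, adjusted p = 0.0304). Both calls were lost without shEZH2 replicate 1 and without either shNTC replicate, where the differences ran from 0.42 to 1.27 for 214836_x_at and from 0.38 to 0.87 for 214669_x_at. 214768_x_at (IGKC) differed by −0.08 (adjusted p = 0.626), 221651_x_at by −0.19, 221671_x_at by −0.16 and 224795_x_at by −0.23, none past the test. These 4 lay at 13.71 to 14.41 in KARPAS-422, near the highest deposited value of 14.82, and a ceiling of the signal there was not tested. 215217_at (IGKC) was at 5.81 and 5.17 with shEZH2, against 6.81 and 6.59 with shNTC, and its difference of −1.21 was not called (adjusted p = 0.0600). Of the others, 216576_x_at differed by 1.04 and 211644_x_at by 0.79, each short of the threshold (adjusted p = 0.0856 and 0.0890), and 211643_x_at, 217157_x_at and 216207_x_at by 0.35, 0.26 and 0.10.

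Heavy chain probe sets mostly did not pass the test. The 1 call was 228518_at, whose values are given above, with a rise of 1.17 (SE 0.13, adjusted p = 0.00292) and no overlap between hairpins in KARPAS-422. 211430_s_at, with a like annotation, differed by 0.29 (SE 0.10, adjusted p = 0.0726). The IGHM probe sets 211634_x_at, 212827_at and 215949_x_at differed by −0.49, 0.22 and 0.73, the IGHD probe set 214973_x_at by −0.57, the IGHG1 probe set 217369_at by −0.18 and the IGHA probe sets 217022_s_at and 216318_at by −0.33 and 0.23. Each of these had an adjusted p of 0.265 or more. For 240915_at (IGHV1-69) the difference was 1.63 with an SE of 0.76, set by the lowest array of 0.95 in shNTC cells, and it was not called (adjusted p = 0.171). Over the 22 heavy chain members the differences ran from −1.15 to 1.63, with 12 above 0.

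**Figure D3:**
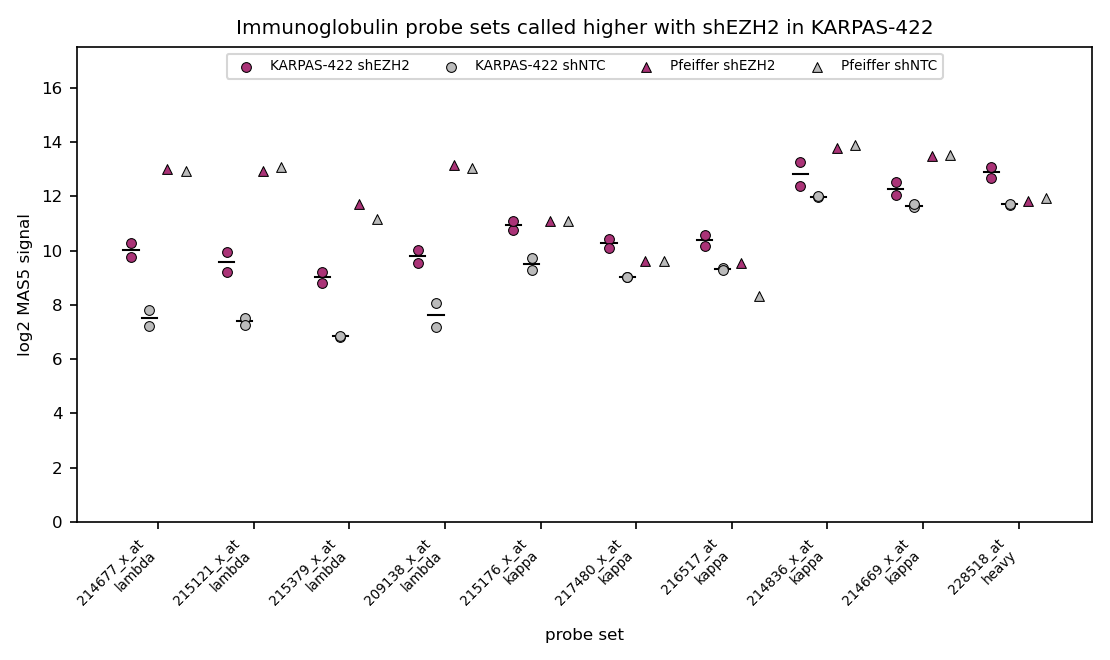
Log2 signal of the 10 immunoglobulin probe sets called higher with shEZH2 in KARPAS-422, by locus, with 1 point per array (circles KARPAS-422, triangles Pfeiffer, purple shEZH2, grey shNTC) and a bar at the mean of the 2 KARPAS-422 arrays. The shEZH2 circles lie above the shNTC circles in each, and in the 4 lambda probe sets all circles lie below the triangles.

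In Pfeiffer, with 1 array per hairpin, the change was not tested, and differences past 1 log2 unit were counted. Of the 46 members 4 were past 1 unit higher with shEZH2 and 1 lower, against 3.75% higher and 1.72% lower among all probe sets. Between replicate arrays of the same KARPAS-422 group, 4.50% (shEZH2) and 6.66% (shNTC) of all probe sets differed by as much. The overall split of 1166 higher and 534 lower became 1017 and 760 after quantile normalization and 906 and 707 after median centring, which moved the median of all probe sets from 0.03 to −0.08. The 4 were 217198_x_at (IGHG1;IGHD;IGHA2;IGH) at 7.00 with shEZH2 against 5.56 with shNTC, 211798_x_at (IGLJ3) at 7.56 against 6.34, 216517_at (IGKC) at 9.54 against 8.34, and 216557_x_at (IGHM;IGHG3;IGHG1;IGHD;IGHA1) at 8.63 against 7.53. The 1 lower was the dim 234764_x_at at 1.99 with shEZH2 against 3.14 with shNTC. Of these, 216517_at also rose in KARPAS-422. The median difference of the members was 0.12, against 0.03 for all probe sets.

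The lambda probe sets that rose in KARPAS-422 moved little in Pfeiffer. 214677_x_at was at 12.99 with shEZH2 against 12.95 with shNTC, 209138_x_at at 13.16 against 13.05, 215121_x_at at 12.92 against 13.07 and 215379_x_at at 11.73 against 11.16. The test of the difference between the lines' hairpin effects called 1 of the 46 members higher in KARPAS-422 (2.17%) and 0 lower, against 0.82% and 0.222% of all probe sets. At an unadjusted p under 0.05 it gave 8 members higher and 3 lower of 46, against 2760 higher and 2136 lower of all 31102 probe sets. The 1 call was 214677_x_at (IGLC1), with a difference of 2.45 (SE 0.40, adjusted p = 0.0478). It was lost under 6 of 12 alternatives, among them leaving out shEZH2 replicate 1 or 2 of KARPAS-422 (2.16 to 2.74 over the arrays left out). The other 3 lambda probe sets had differences of 1.59 to 2.33 and adjusted p-values of 0.0610 to 0.134. For 228518_at it was 1.26 (adjusted p = 0.0682), for 217480_x_at 1.24 (adjusted p = 0.0815) and for 215176_x_at 1.42 (adjusted p = 0.0988). A difference between the lines in the hairpin effect was therefore called for 1 member, and the single Pfeiffer array per arm limits that test.

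**Figure D4:**
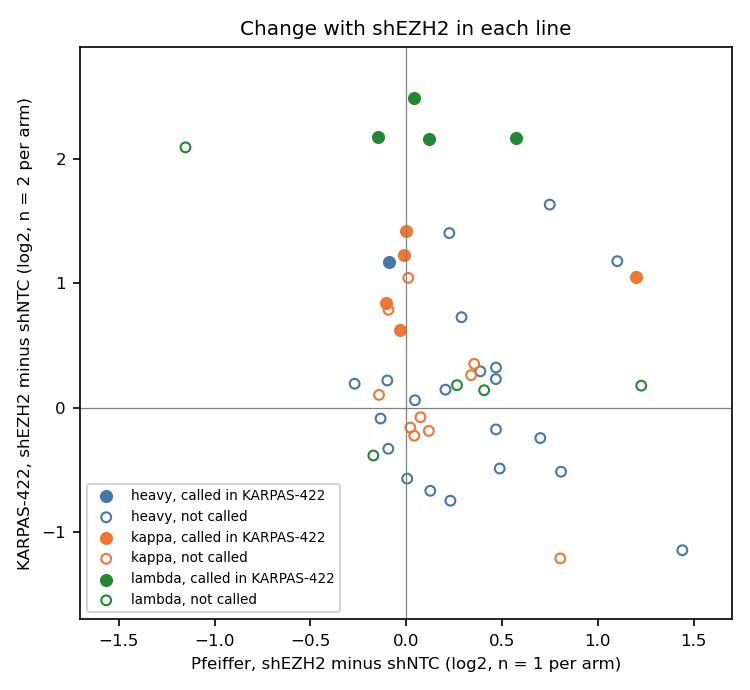
Difference between shEZH2 and shNTC (log2) of each tested immunoglobulin probe set in KARPAS-422 (vertical axis, 2 arrays per arm) against Pfeiffer (horizontal axis, 1 array per arm), coloured by locus, with filled points for those called in KARPAS-422. The 4 filled lambda points lie above 2 in KARPAS-422 and between −0.15 and 0.57 in Pfeiffer.

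Genes that assemble, fold or export immunoglobulin had calls in both directions. Of the 32 tested probe sets of 14 such genes, 4 were higher and 7 lower with shEZH2 in KARPAS-422, with a median of −0.17, where 12.0% and 8.06% of all probe sets were higher and lower. JCHAIN (212592_at), which joins IgM and IgA into multimers, was at 8.24 and 8.82 in KARPAS-422 shEZH2 cells and 7.46 and 5.97 in shNTC cells, and at 14.01 and 13.98 in Pfeiffer shEZH2 and shNTC cells. It rose in KARPAS-422 by 1.81 (SE 0.44, adjusted p = 0.0307), a call lost without shEZH2 replicate 1 (1.07 to 2.56 over the arrays left out) and without replicate 2. DNAJB9, a chaperone of the endoplasmic reticulum, rose by 0.69 (202843_at) and 0.44 (202842_s_at), and CD79B, a signalling subunit of the B cell receptor, by 0.39 (205297_s_at). PDIA6, which forms disulphide bonds, fell by 0.56 (207668_x_at), 0.54 (216640_s_at) and 0.45 (208639_x_at). SEC11C, a subunit of the signal peptidase, fell by 0.45 (223299_at). The calls of both DNAJB9 probe sets were lost without any 1 of the KARPAS-422 arrays (0.54 to 0.85 and 0.38 to 0.51). That of CD79B was lost without shEZH2 replicate 1 or either shNTC replicate (0.31 to 0.47), that of 208639_x_at without replicate 2 of either arm (−0.53 to −0.38), and that of SEC11C without shEZH2 replicate 1 or shNTC replicate 2 (−0.51 to −0.39).

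Transcription factors and RNA processing factors of the loci gave 12 higher and 8 lower of 58 tested probe sets, with a median of 0.13, against 12.0% higher and 8.06% lower overall. The higher ones came from 5 genes, PRDM1, BACH2, TCF4, POU2AF1 and SPIB. PRDM1, the repressor that drives plasma cell differentiation, was at 7.87 and 7.53 in KARPAS-422 shEZH2 cells against 4.50 and 2.88 in shNTC cells at 228964_at, and at 9.46 and 9.36 in Pfeiffer shEZH2 and shNTC cells. It rose in KARPAS-422 by 4.01 (SE 0.50, adjusted p = 0.00385), and by 3.08 (adjusted p = 0.0118) at 235668_at. The shNTC values of 228964_at lay under the median of all values, so the size of its rise is uncertain. Over the alternatives the rises ran from 1.79 to 4.82 at 228964_at and from 1.04 to 3.84 at 235668_at. A further PRDM1 probe set, 217192_s_at, lay between 6.64 and 7.01 in KARPAS-422 and differed by −0.21 (adjusted p = 0.563). BACH2, a repressor of PRDM1 in B cells, was at 10.33 and 10.32 with shEZH2 against 7.10 and 7.05 with shNTC at 221234_s_at. It rose by 3.25 (SE 0.19, adjusted p = 2.35e-04), and by 3.19 at 227173_s_at. The lower ones included TCF3, a factor that binds immunoglobulin enhancers, by −0.80 (209151_x_at), −0.74 (213811_x_at) and −0.65 (213730_x_at), and MEF2C by −0.67 (207968_s_at). The calls of 235668_at and 227173_s_at were lost without either shEZH2 replicate (2.32 to 3.84 and 2.17 to 4.22). Those of 209151_x_at (−0.91 to −0.69) and MEF2C (−0.83 to −0.50) were lost without shEZH2 replicate 2, and that of MEF2C also without replicate 1 of either arm. PRDM1 and BACH2, which act against each other, thus both rose, at 2 probe sets each.

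Genes of recombination, class switching and the surrogate light chain gave 0 higher and 6 lower of 8 tested probe sets, with a median of −0.51, against 12.0% higher and 8.06% lower overall. The 6 came from 4 genes, 3 of them from MSH6. MSH6, a mismatch repair protein used in class switching, fell by 0.76 (211450_s_at), 0.67 (1569034_a_at) and 0.60 (202911_at), and UNG, the uracil glycosylase of the same process, by 0.57 (202330_s_at). The call of 1569034_a_at was lost without shEZH2 replicate 1 or either shNTC replicate (−0.83 to −0.51). The recombinase genes RAG1 and RAG2 and DNTT and VPREB1 were above the median of all values on no array. IGLL1 (206660_at), the lambda-like surrogate light chain gene, was at 11.36 and 11.26 in KARPAS-422 shEZH2 cells, 11.25 and 11.36 in shNTC cells, and 6.25 and 6.39 in Pfeiffer shEZH2 and shNTC cells. It did not pass the shEZH2 test in KARPAS-422, with a difference of 0.01 (adjusted p = 0.972). The lambda-related probe set of IGLL3P, 215946_x_at, differed by 0.16 (adjusted p = 0.453).

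Marker lists gave the following calls with shEZH2 in KARPAS-422, where 12.0% of all probe sets were higher and 8.06% lower. Plasma cell genes gave 3 higher and 0 lower of 11 probe sets in KARPAS-422, the PRDM1 and JCHAIN ones above, while their summed signal (log2) was 12.25 to 12.33 with shEZH2 and 12.42 to 12.80 with shNTC. B cell genes gave 2 higher (MS4A1 228599_at by 0.61, CD79B) and 0 lower of 14. T and NK cell genes gave 0 higher and 2 lower of 4, CD3D (213539_at) by −0.77 and CD3G (206804_at) by −0.64. Of these calls, that of MS4A1 was lost without replicate 2 of either arm (0.44 to 0.78), that of CD3D without either shEZH2 replicate or shNTC replicate 1 (−0.86 to −0.68), and that of CD3G without any 1 array (−0.81 to −0.46). Their summed signal was 11.96 to 12.11 with shEZH2 and 12.64 to 12.77 with shNTC, and CD2, GNLY and NKG7 were above the median of all values on no array. Myeloid genes gave 0 calls of 1 tested probe set, and epithelial and fibroblast genes 0 of 6. The part of these markers in the immunoglobulin result was not tested.

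**Figure D5:**
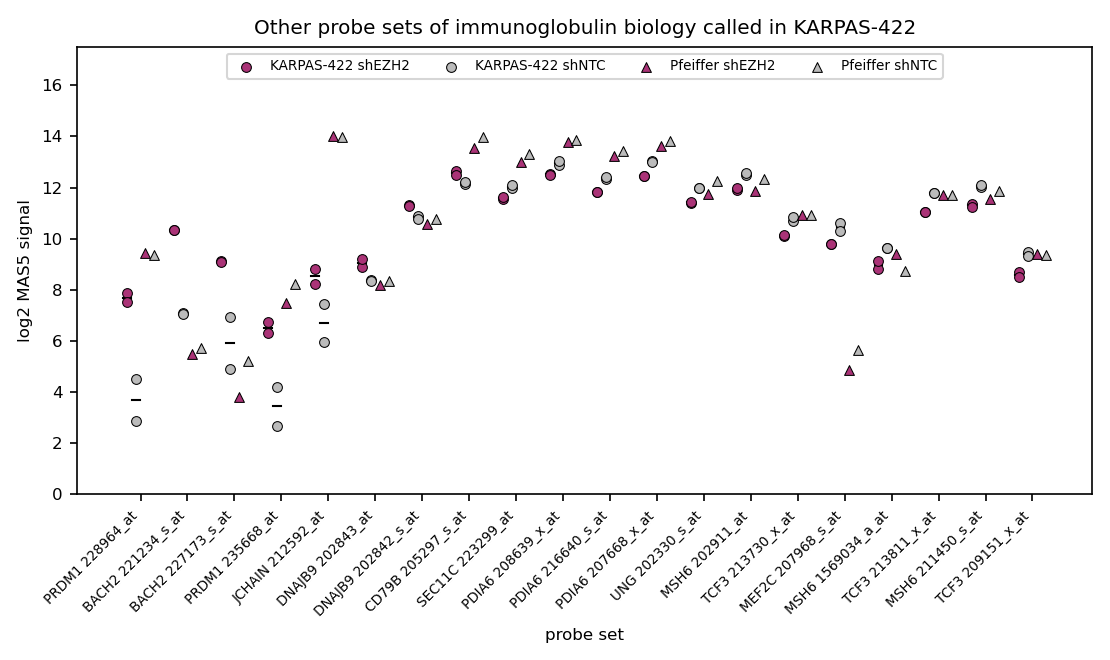
Log2 signal of the named probe sets for immunoglobulin assembly and secretion, transcription of the loci and class switching that were called in KARPAS-422, ordered by their difference, with 1 point per array (circles KARPAS-422, triangles Pfeiffer, purple shEZH2, grey shNTC) and a bar at the mean of the 2 KARPAS-422 arrays. PRDM1 and BACH2 at the left show the widest gaps, and the probe sets at the right lie lower with shEZH2.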

How the data were processed

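RNA of 6 samples was measured on 1 array each. The authors deposited 1 table of log2 signals made with MAS5, per the submitters' processing notes. Its log base and scaling target are not given in the sources used here. A 2% trimmed mean of 500.0 on every array after raising 2 to each value showed a common scaling, which was kept. Neither detection calls nor scan dates were used, and batches were not tested. MAS5 signals near background scatter widely on the log2 scale. Symbols came from the platform annotation: 41091 probe sets had 1 symbol, 1801 several and 11721 none, and 62 were controls, left out. All 28 member symbols were in a RefSeq table (GRCh38.p14). Hairpin sequences came from the labels' protocols.

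Probe sets above the median of all values on at least 2 of 6 arrays (31102) were fitted with limma 3.58.1 in R 4.3.3 (lmFit, eBayes with an intensity trend, two-sided, Benjamini-Hochberg over all 31102, threshold 0.05), in a model of 4 groups. The spread rested on 2 residual degrees of freedom, all from KARPAS-422, and 5.02 prior ones. Lists were described by counts and medians. Scripts were tested on simulated data. Replicate numbers did not pair the arrays (correlation of deviations 0.0259).

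The members and the 8 lists were chosen with earlier results of these data known. All tested members with a constant-region symbol are named, with values on every array for those of 1 constant class; of other members, the 8 highest in each line, the 8 largest calls per direction and the 6 largest past 1 unit in Pfeiffer; of each list, up to 4 called probe sets per direction. Others named, such as IGLL1, IGLL3P, EPCAM and CD8A, were chosen after their values were seen. Alternatives varied scaling, filter, an offset of 16 or 64 on linear values, the intensity trend, the replicate block, the arrays left out and the probe sets counted.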

Additional observations from a re-analysis of the deposited data

Results flagged for a closer look

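The test of the difference between the lines' shEZH2 effects called 255 probe sets higher and 69 lower in KARPAS-422, of which 3 are members or probe sets of the lists. For 214677_x_at (IGLC1) the KARPAS-422 effect exceeded the Pfeiffer effect by 2.45. For BACH2 (221234_s_at) it exceeded it by 3.46, with 10.33 and 10.32 in KARPAS-422 shEZH2 cells against 7.10 and 7.05 in shNTC cells, and 5.50 in Pfeiffer shEZH2 cells against 5.71 in shNTC cells. For CD79A (1555779_a_at), a signalling subunit of the B cell receptor, it was lower by −1.05, with 12.70 and 12.67 in KARPAS-422 shEZH2 cells against 12.83 and 12.73 in shNTC cells, and 9.13 in Pfeiffer shEZH2 cells against 8.17 in shNTC cells. Each rests on 1 Pfeiffer array per arm. The calls of IGLC1 and BACH2 were lost without either KARPAS-422 shEZH2 replicate (2.16 to 2.74 and 3.44 to 3.48), and that of CD79A without any 1 KARPAS-422 array (−1.10 to −0.99).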

How the results depend on the processing

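Without the intensity trend, members higher with shEZH2 in KARPAS-422 numbered 3 against 10, all probe sets 993 against 3742 higher and 118 against 2506 lower, and 0 were called for the difference between lines. Leaving out 1 array gave 1410 to 2972 higher and 1004 to 1334 lower probe sets, and for the difference between lines 0 to 3 members, 0 to 332 higher and 0 to 90 lower probe sets, against 255 and 69. Members lower with shEZH2 in KARPAS-422 numbered 1 with an offset of 16 or 64 and 3 with the replicate block, against 0. The replicate block also gave 14 members higher against 10, and 4462 higher and 3307 lower probe sets. Without filter, 1548 probe sets were lower, and the difference between lines had 82 higher and 12 lower with 0 members; with the mean filter it had 4 members and 116 lower, with an offset of 16, 44 lower, and 0 members under cyclic loess. Restricted to _at probe sets, 2 members were higher with shEZH2 in KARPAS-422, 2 higher and 2 lower in KARPAS-422 than in Pfeiffer. For the difference between the lines' shEZH2 effects there were 0. With 1 symbol only, 6 members were higher with shEZH2 in KARPAS-422, and 2 were higher and 12 lower in KARPAS-422 than in Pfeiffer. Between the shNTC arrays alone, 3 members were higher, and 228518_at and 217480_x_at turned to −0.22 and −0.59; 221651_x_at turned to 0.037 under median centring, which moved the median line difference of all probe sets from −0.03 to 0.21. In Pfeiffer, members past the size numbered 19 higher and 12 lower without filter, 2 and 0 with the mean filter, 1 and 0 with an offset of 64, 0 lower with 16, 9 higher at 0.5 units, 1 and 0 for _at probe sets and 2 and 0 with 1 symbol. All probe sets numbered 6064 and 4281, 618 and 238, 714 and 290 (offset 16), 215 and 63 (offset 64), and 4090 and 2200 (0.5 units), against 1166 and 534. The rises of 214677_x_at, 215379_x_at and 217480_x_at in KARPAS-422 kept their call under all 14 alternatives; 209138_x_at, 215121_x_at, 215176_x_at, 216517_at and 228518_at lost it without the trend only. The causes were not tested. Dim signals limit the size of differences.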
